A study of Mus musculus with 12 samples.

Results

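The keratin genes are the rows of the deposited gene table whose symbol is Krt followed by a number and at most 1 letter, which gave 53 of 18858 rows. Of these, 28 encode type I and 25 type II keratins, and 46 passed the filter on low counts and were tested. The other 7 (Krt4, Krt9, Krt12, Krt13, Krt24, Krt76 and Krt88), which include keratins of cornea, mucosa and palm or sole, had at most 5 counts in any sample. The tissue was whole skin of BALB/C mice (an inbred strain with white fur), which the series text puts at 8 weeks of age, and RNA was selected on oligo-dT beads. The groups carried the treatments TSeL+L, TL+L, TSeL or PBS (phosphate-buffered saline), with 3 labelled samples each. The labels give no other allele, agent, time or site of skin, and do not say what T, L and SeL stand for or whether samples came from separate animals, so p-values measure only the spread between these samples. Columns read as TSeL+L were near-identical to each other, apart from counting noise, and so were those read as TSeL, so each set was averaged and counted as 1 sample. Comparisons thus rest on 1 TSeL+L, 3 TL+L, 1 TSeL and 3 PBS samples, and each group with 1 sample is taken to spread as the others do. Which columns hold TSeL+L and TSeL is a reading of their codes, and every value of those groups depends on it.

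Keratins are the intermediate filament proteins of epithelial cells. A filament is built from pairs of a type I (acidic) and a type II (basic) chain, and each layer of the skin makes its own pairs. Basal cells of the epidermis and of the follicle's outer sheath make Krt5 with Krt14, cells that leave the basal layer switch to Krt1 with Krt10, and injured or irritated epidermis makes Krt6a, Krt6b, Krt16 and Krt17. The lower hair follicle adds the companion layer (Krt75), the inner root sheath that moulds the growing shaft, and the shaft itself, whose hard keratins are cross-linked with keratin-associated proteins. Follicles grow and rest in cycles, and inner root sheath and shaft keratins are made in growing follicles.

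The promoters of 3 cortex keratins, 2 inner root sheath keratins and the suprabasal Krt10 are shown. The first 2 classes carried the widest differences between samples, and Krt10 follows an inner root sheath gene in the order of keratin genes. The sequences are the 250 bases before the start site in the RefSeq annotation of GRCm38.p6, all read 5′ to 3′ on the minus strand. Capitals mark the TATA box letters TATAAA, the LEF1/TCF core CTTTGAA and the CCAAT box, each on either strand. The windows lie at chr11:100050552-100050801 for Krt31, chr11:100029869-100030118 for Krt33b, chr11:100041555-100041804 for Krt34, chr15:101743098-101743347 for Krt71, chr11:99322952-99323201 for Krt25 and chr11:99389365-99389614 for Krt10.
Krt31: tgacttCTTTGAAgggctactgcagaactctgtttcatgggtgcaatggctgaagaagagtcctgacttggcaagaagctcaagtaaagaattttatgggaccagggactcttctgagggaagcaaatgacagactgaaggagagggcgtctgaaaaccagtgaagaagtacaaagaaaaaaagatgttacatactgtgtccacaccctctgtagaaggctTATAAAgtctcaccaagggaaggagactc
Krt33b: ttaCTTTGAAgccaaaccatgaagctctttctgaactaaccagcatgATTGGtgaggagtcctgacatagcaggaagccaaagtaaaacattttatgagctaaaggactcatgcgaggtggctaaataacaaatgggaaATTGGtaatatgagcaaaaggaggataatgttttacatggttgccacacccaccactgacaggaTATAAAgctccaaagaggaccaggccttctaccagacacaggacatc
Krt34: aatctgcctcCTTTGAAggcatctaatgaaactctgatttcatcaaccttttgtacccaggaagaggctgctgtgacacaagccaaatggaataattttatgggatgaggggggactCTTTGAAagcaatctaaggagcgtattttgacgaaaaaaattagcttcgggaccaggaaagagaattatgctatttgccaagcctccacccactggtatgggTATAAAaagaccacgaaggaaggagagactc
Krt71: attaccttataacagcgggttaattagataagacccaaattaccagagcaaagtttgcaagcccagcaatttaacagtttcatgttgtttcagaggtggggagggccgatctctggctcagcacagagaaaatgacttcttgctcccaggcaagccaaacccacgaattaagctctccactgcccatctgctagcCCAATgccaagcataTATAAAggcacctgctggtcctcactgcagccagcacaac
Krt25: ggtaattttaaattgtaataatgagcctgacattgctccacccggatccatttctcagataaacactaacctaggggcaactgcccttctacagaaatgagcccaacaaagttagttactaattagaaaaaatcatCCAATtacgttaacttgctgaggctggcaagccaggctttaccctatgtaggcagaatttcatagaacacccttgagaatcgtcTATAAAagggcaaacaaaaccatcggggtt
Krt10: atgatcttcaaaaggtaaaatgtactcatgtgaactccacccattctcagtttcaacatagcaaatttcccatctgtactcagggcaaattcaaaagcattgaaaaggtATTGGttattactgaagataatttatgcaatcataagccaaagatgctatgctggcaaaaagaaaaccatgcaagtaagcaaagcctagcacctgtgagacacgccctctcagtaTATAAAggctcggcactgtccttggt
All of these windows held TATAAA, beginning 26 to 47 bases before the start site. The 3 cortex promoters each held CTTTGAA, 240 to 247 bases before the start, and Krt34 held another copy 133 bases before it. The Krt31 window matched that of Krt34 at 64.8% and that of Krt33b at 63.2% of its 250 bases in a global alignment. Its match was 50.8% with Krt71, 53.6% with Krt25, 54.8% with Krt10 and 51.6% with Krt14. Krt33b and Krt34 matched at 58.4%, no higher than Krt25 and Krt10, of different classes, at 58.8%. Promoters were matched for 36 of the 53 keratin genes. TATAAA was present in 7 of 7 inner root sheath, 6 of 10 hair shaft and 17 of 36 keratin promoters, against 3504 of 27025 promoters in the annotation, with both strands searched and overlaps counted once per promoter. CTTTGAA was present in 5 of 10 hair shaft and 0 of 7 inner root sheath promoters, against 4.64% of all. CCAAT was present in 6 of 10 hair shaft and 4 of 7 inner root sheath promoters, against 34.5% of all. The AP-1 motif TGANTCA was present in 1 of 36 keratin promoters, against 6.87% of all. These matches describe letters in the windows and do not show that a factor binds there.

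The skin carried the keratinocyte keratins that its label calls for. Krt14, Krt5 and Krt1 were at 1203 TPM (the authors' transcript levels, scaled for gene length and depth) or more in every TL+L and PBS sample. Krt10 was at 634 TPM or more in each of these samples. The wound-induced Krt16 and Krt17, which a skin label alone does not call for, were at 873 TPM or more in each. TPM of TSeL+L and TSeL were not used here, so ratios and shares in TPM are given for TL+L and PBS. Deposited columns held 16630580 to 17318158 counts each. Keratins together took 3.34% in the TSeL+L sample, 4.25, 2.14 and 4.47% in TL+L, 1.14% in TSeL, and 1.63, 2.15 and 1.498% in PBS of all counts. TSeL+L and the TL+L samples 1 and 3 thus lay above all PBS samples, TL+L replicate 2 lay at the level of PBS replicate 2, and TSeL lay below all PBS samples. Here and below, values of TL+L and PBS are listed in the order of replicates 1, 2 and 3. In whole skin, a lower value from fewer cells of a type cannot be told apart from less RNA per cell.

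**Figure D1:**
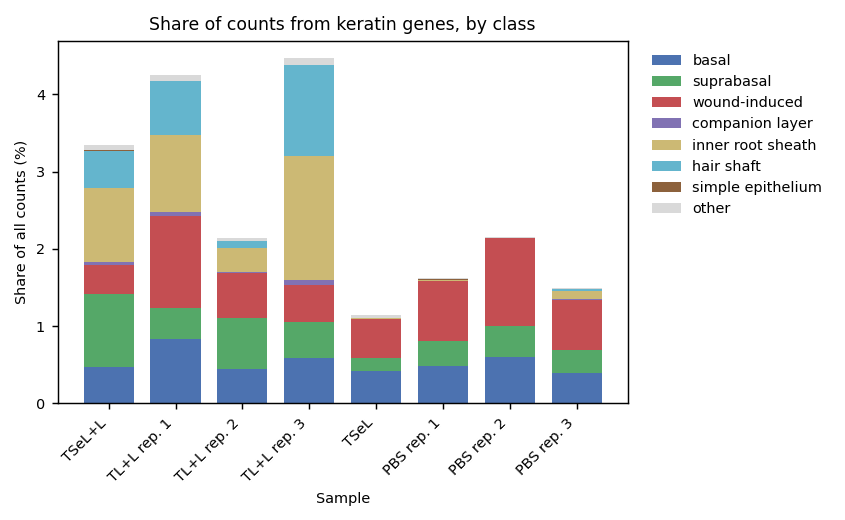
Percent of all counts (vertical axis) that came from the keratin genes of each class, stacked, in each of the 8 samples (horizontal axis). Inner root sheath and hair shaft keratins fill a large part of the TSeL+L bar and of the bars of TL+L replicates 1 and 3, a smaller part of TL+L replicate 2, and little of the TSeL and PBS bars.

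Between TL+L and PBS, 6 of the 46 tested keratins rose and 0 fell by edgeR's quasi-likelihood test with a Benjamini-Hochberg adjusted p under 0.05 over all genes tested. A gene is called below where it passed this test on all 8 samples, unless another tool or set of samples is named. Of all 15791 genes tested, 5.67% rose and 7.17% fell in this comparison, 12.8% in all. The 6 were Krt15, a keratin of basal cells and of the follicle bulge, Krt77, Krt36, Krt84, Krt23 and Krt79. At an unadjusted p under 0.05 the number was 30, among them all 7 inner root sheath and all 16 hair shaft keratins, against 36.3% of all genes tested. DESeq2 called 27 keratins, all higher, against 25.7% of all genes in either direction. In 30 of the 46 every TL+L sample lay above every PBS sample, against 20.6% of all genes tested, and in 1 (Krt20) every TL+L sample lay below, against 21.8%. The number of called keratins depended on single samples. It was 0 without PBS replicate 1 (0.101% of all genes), 1 without PBS replicate 2 (0.603%), 1 without PBS replicate 3 (0.920%), 1 without TL+L replicate 1 (1.16%), 16 without TL+L replicate 2 (6299 of 15748 genes) and 0 without TL+L replicate 3 (0.444%). The 16 of 46 keratins are a smaller share than that of all genes in the same fit.

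By class, the median log2 fold change of TL+L over PBS was 5.60 in the hair shaft, 4.71 in the companion layer (1 gene), 4.57 in the inner root sheath, 0.83 in suprabasal, 0.65 in basal, 0.62 in simple epithelial and -0.55 in wound-induced keratins. Over all genes tested it was 0.01. The classes thus ran from hard follicle keratins, far above the median of all genes, to the wound-induced keratins below it.

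**Figure D2:**
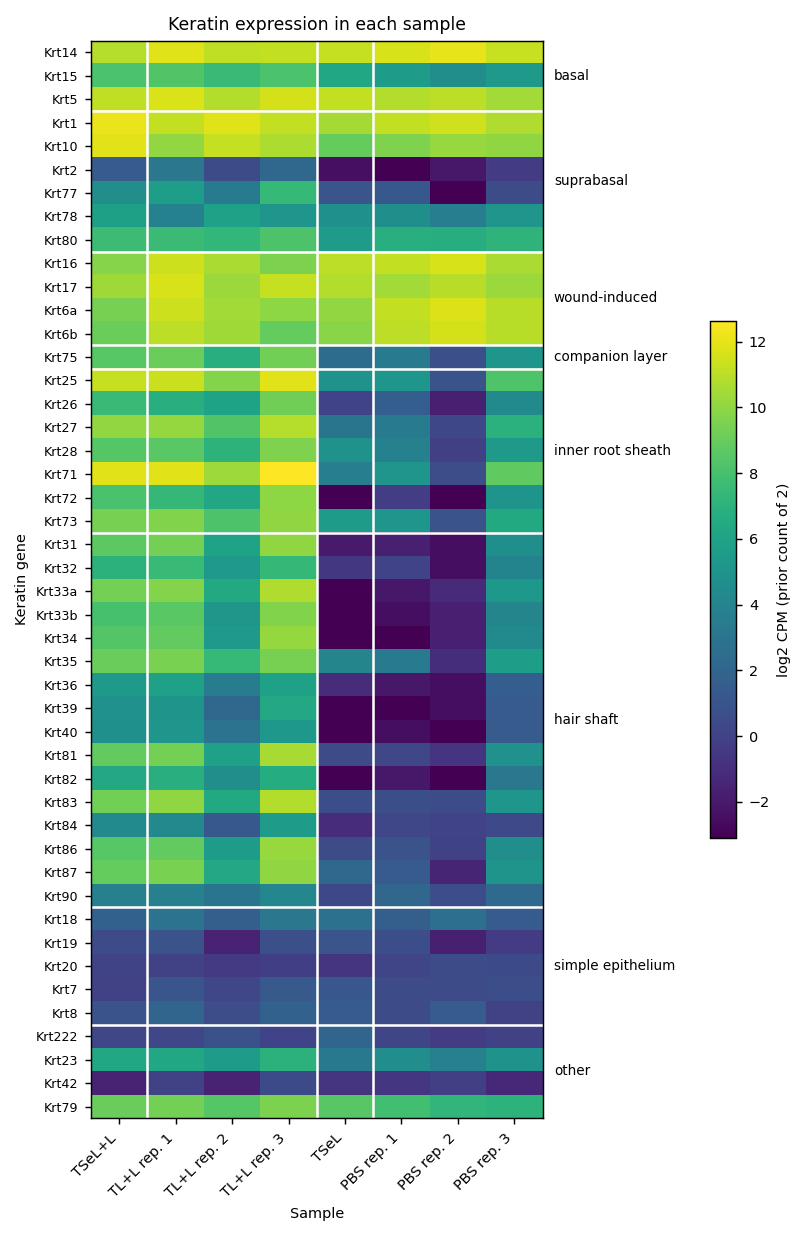
Level of each of the 46 tested keratins (rows, grouped by class) in each sample (columns) as log2 CPM with a prior count of 2, shown by colour. Rows of the companion layer, inner root sheath and hair shaft are bright in TSeL+L and TL+L and dark in TSeL and PBS replicates 1 and 2, with PBS replicate 3 between them.

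Krt14 and Krt5, the filament pair of basal keratinocytes, were abundant in every sample. Krt14 (NCBI gene 16664) was at 1854 CPM in the TSeL+L sample, 3745, 2208 and 2299 CPM in TL+L, 2439 CPM in TSeL, and 3189, 4226 and 2571 CPM in PBS. CPM are counts scaled to library size with TMM factors. TL+L and PBS overlapped, and TSeL+L lay below all of them. Its log2 fold change in TL+L was -0.28 (SE 0.32, edgeR adjusted p = 0.552). Krt5 (110308) was at 2218 CPM in the TSeL+L sample, 3461, 1811 and 3054 CPM in TL+L, 2349 CPM in TSeL, and 1798, 2088 and 1416 CPM in PBS. TL+L replicates 1 and 3 lay above all PBS samples and replicate 2 did not (log2 fold change 0.65, SE 0.31, edgeR adjusted p = 0.177). The TPM ratio of Krt14 to Krt5 was 1.51, 1.71 and 1.05 in TL+L, against 2.48, 2.83 and 2.54 in PBS. Every TL+L sample lay below the lowest PBS ratio.

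Krt15 rose in TL+L. It was at 291 CPM in the TSeL+L sample, 331, 183 and 288 CPM in TL+L, 79.0 CPM in TSeL, and 45.9, 25.4 and 42.6 CPM in PBS. The TL+L and PBS samples did not overlap, TSeL+L lay inside the TL+L range, and TSeL lay between the 2 groups. The means were 267 ± 76.3 CPM over the TL+L samples, against 38.0 ± 11.03 CPM over those of PBS (SD, n = 3 each), a 7.04-fold rise (log2 fold change 2.81, SE 0.32, edgeR adjusted p = 0.0116). This call was lost without PBS replicate 1, without PBS replicate 3 or without TL+L replicate 3, with edgeR adjusted p of 0.0583, 0.0566 and 0.0518, while the fold moved between 6.03 and 8.15 over the samples left out. The TPM ratio of Krt15 to Krt14 was 0.0846, 0.0792 and 0.120 in TL+L, against 0.0138, 0.00575 and 0.0159 in PBS. That ratio was higher in every TL+L sample than in any PBS sample.

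The suprabasal pair was highest in TSeL+L, and edgeR on all samples called neither gene in any comparison. Krt1 (16678), the type II chain of cells that have left the basal layer, was at 4671 CPM in the TSeL+L sample, 2321, 3713 and 2285 CPM in TL+L, 1443 CPM in TSeL, and 2357, 2918 and 1723 CPM in PBS. TSeL+L lay above every other sample and TSeL below every other sample. Krt10 (16661), its type I partner, was at 3797 CPM in the TSeL+L sample, 1061, 2449.9 and 1623 CPM in TL+L, 487 CPM in TSeL, and 758, 1165 and 1030.5 CPM in PBS. Again TSeL+L was highest and TSeL lowest, and TL+L overlapped PBS. Between TL+L and PBS neither was called (log2 fold change 0.25, SE 0.31, edgeR adjusted p = 0.585 for Krt1 and log2 fold change 0.80, SE 0.35, edgeR adjusted p = 0.151 for Krt10). TSeL+L over TSeL, Krt10 was 7.79-fold and Krt1 3.24-fold higher in CPM, and neither passed (log2 fold change 2.96, SE 0.65, edgeR adjusted p = 0.380 for Krt10). DESeq2 called both in TSeL+L against TSeL, and Krt10 in TSeL+L against PBS. Without TL+L replicate 2, edgeR also called Krt10 in TSeL+L against PBS (adjusted p = 0.0158). It then called 4 of 46 keratins in that comparison, against 13.7% of all genes, so the call adds little. The TPM ratio of Krt10 to Krt1 was 0.544, 0.788 and 0.847 in TL+L, against 0.384, 0.475 and 0.714 in PBS. The groups overlapped in that ratio.

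Krt77, a type II keratin known from human sweat ducts, rose in TL+L. It was at 25.1 CPM in the TSeL+L sample, 53.3, 10.2 and 173 CPM in TL+L, 1.96 CPM in TSeL, and 2.26, 0 and 1.30 CPM in PBS. All TL+L samples exceeded all PBS samples, but TL+L replicate 3 was 16.99 times replicate 2. The means were 78.9 ± 84.5 CPM over the TL+L samples, against 1.19 ± 1.13 CPM over those of PBS (SD, n = 3 each), a 66.0-fold rise (log2 fold change 6.04, SE 1.37, edgeR adjusted p = 0.0408). The fold was 26.9 without TL+L replicate 3 and 119 without PBS replicate 1, and the call was lost when any 1 sample other than TL+L replicate 2 was left out (edgeR adjusted p = 0.109 to 0.124).

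Krt2 (16681), a keratin of the late suprabasal layers, was scarce, at 2.52 CPM in the TSeL+L sample, 8.58, 1.31 and 4.46 CPM in TL+L, 0.0699 CPM in TSeL, and 0, 0.123 and 0.711 CPM in PBS. All TL+L samples and TSeL+L lay above all PBS samples. It was not called (log2 fold change 4.06, SE 1.09, edgeR adjusted p = 0.0555), and its fold was 16.7, or 70.5 without PBS replicate 3. The remaining tested suprabasal keratins, Krt78 and Krt80, ran from 12.4 to 298 CPM over all samples. Krt80, a keratin of late differentiation, was higher in every TL+L sample than in any PBS sample and was not called (log2 fold change 0.87, SE 0.25, edgeR adjusted p = 0.0654). Krt78 overlapped between the groups (log2 fold change 0.54, SE 0.56, edgeR adjusted p = 0.511).

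The wound-induced keratins took the largest class share in every PBS sample. Their share of all counts was 0.367% in the TSeL+L sample, 1.19, 0.580 and 0.482% in TL+L, 0.503% in TSeL, and 0.785, 1.13 and 0.659% in PBS. TL+L replicate 1 was the highest of all samples and TL+L replicates 2 and 3 lay below all PBS samples, so the TL+L samples did not share a direction. Without PBS replicate 2 or without TL+L replicate 3 the difference in mean share, TL+L minus PBS, was 0.0290 and 0.0274 percentage points, against -0.107 with all samples. TSeL+L and TSeL lay below all PBS samples.

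Krt6a (16687), a type II chain that wounding induces and that the companion layer also makes, was at 669.7 CPM in the TSeL+L sample, 2741, 1392 and 1004 CPM in TL+L, 1091 CPM in TSeL, and 2290.1, 3581 and 1936 CPM in PBS. Krt6b (16688), its near-identical neighbour, was at 537 CPM in the TSeL+L sample, 2170.2, 1335 and 479 CPM in TL+L, 919 CPM in TSeL, and 2163, 3059 and 1943 CPM in PBS. In both, TSeL+L and TSeL lay below all PBS samples and TL+L overlapped PBS. Reads shared by these copies make the split between them uncertain. Krt16 (16666), the type I partner of Krt6, was at 872 CPM in the TSeL+L sample, 2709, 1602 and 725 CPM in TL+L, 2109 CPM in TSeL, and 2288, 3266 and 1576 CPM in PBS. TSeL+L lay below all PBS samples, and TL+L replicate 3 did as well. Krt17 (16667), which is also a keratin of the follicle's outer root sheath, was at 1319 CPM in the TSeL+L sample, 3189.8, 1231 and 2419.7 CPM in TL+L, 1791 CPM in TSeL, and 1383, 1935 and 1246 CPM in PBS. TSeL+L and TSeL lay within the PBS range, TL+L replicates 1 and 3 above it, and TL+L replicate 2 just below it.

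EdgeR on all samples called none of the 4 in any comparison. DESeq2, and edgeR on only the compared groups, called Krt6a and Krt6b lower in TSeL+L than in PBS. Without TL+L replicate 2, edgeR called Krt17 higher in TL+L (adjusted p = 0.0318), in a fit that called 40% of all genes. TL+L over PBS, the log2 fold changes were -0.60 for Krt6a, -0.85 for Krt6b, -0.50 for Krt16 and 0.58 for Krt17. TSeL+L over PBS they were -1.96, -2.15, -1.45 and -0.21 in the same order, with edgeR adjusted p of 0.194, 0.225, 0.340 and 0.853. Krt17 thus stood apart from the rest of its class in sign in TL+L, which was not tested. The summed TPM of Krt6a, Krt6b and Krt16 over that of Krt1 and Krt10 was 2.78, 0.861 and 0.676 in TL+L, against 2.69, 2.98 and 2.35 in PBS. TL+L replicates 2 and 3 lay below every PBS sample, and TL+L replicate 1 lay in the PBS range. The neutrophil marker list (4 of 4 genes detected in every sample) summed to 1549 CPM in the TSeL+L sample, 4679, 2484 and 1088 CPM in TL+L, 3559 CPM in TSeL, and 6904, 6319.6 and 4262 CPM in PBS. It was highest in TL+L in replicate 1, the TL+L sample with the highest wound-induced share, and its part in these values was not tested.

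**Figure D3:**
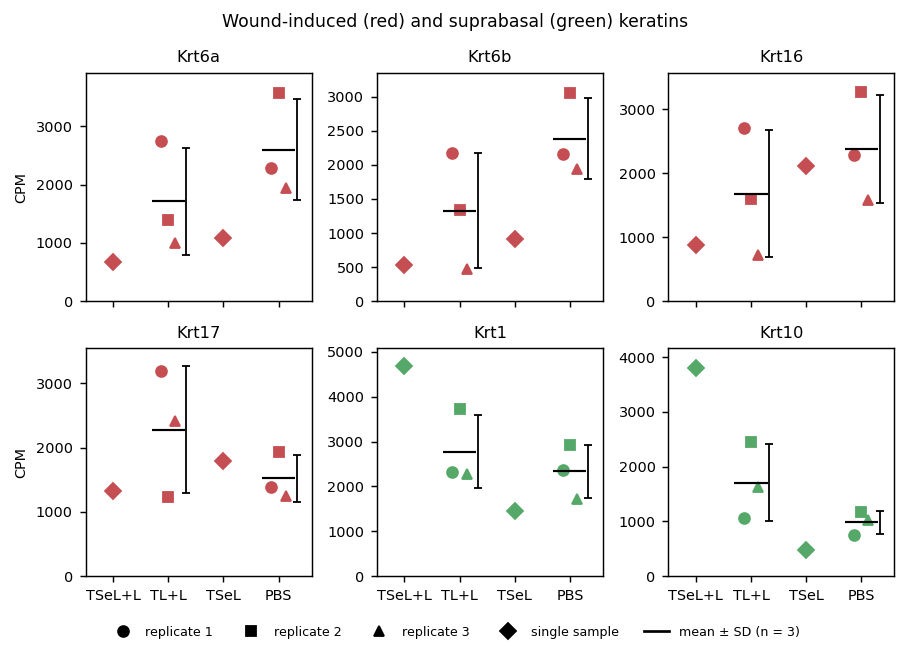
CPM (vertical axis, from 0) of 4 wound-induced and 2 suprabasal keratins by group (horizontal axis), 1 point per sample, with the mean ± SD of the 3 TL+L and the 3 PBS samples. TSeL+L has the highest Krt1 and Krt10 and lies below every PBS sample in Krt6a, Krt6b and Krt16, and the TL+L points of Krt16 spread from 725 to 2709 CPM around a PBS mean of 2376 CPM.

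In the follicle, the companion layer keratin Krt75 (109052), made between the inner and the outer root sheath, was at 366 CPM in the TSeL+L sample, 529, 108 and 623 CPM in TL+L, 5.45 CPM in TSeL, and 10.7, 1.54 and 35.7 CPM in PBS. Every TL+L sample and TSeL+L lay above every PBS sample, and TSeL lay between PBS replicates 1 and 2. Krt75 was 26.2-fold higher in TL+L and was not called (log2 fold change 4.71, SE 1.21, edgeR adjusted p = 0.0506). Without PBS replicate 3 the fold was 69.0.

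Inner root sheath keratins took 0.962% in the TSeL+L sample, 0.999, 0.316 and 1.60% in TL+L, 0.0111% in TSeL, and 0.0128, 0.000674 and 0.104% in PBS of all counts. All TL+L samples and TSeL+L exceeded all PBS samples, TL+L replicate 2 was the lowest TL+L sample in 7 of 7 genes, and PBS replicate 3 the highest PBS sample in 7 of 7. TSeL lay within the PBS range in 7 of 7 genes, where 37.5% of all genes lay above that range and 33.4% below it.

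Krt71 (56735), the main type II chain of the inner root sheath, in which mutations give wavy hair, was at 3877 CPM in the TSeL+L sample, 3855, 1269 and 6291 CPM in TL+L, 12.4 CPM in TSeL, and 33.9, 1.41 and 446 CPM in PBS. In TL+L replicate 3 it had the highest TPM of any keratin. Krt25 (70810), a type I partner of Krt71, was at 2444 CPM in the TSeL+L sample, 2663, 851 and 3809 CPM in TL+L, 30.3 CPM in TSeL, and 35.2, 1.78 and 308 CPM in PBS. In both, TL+L replicate 3 was highest, PBS replicate 2 lowest, and TSeL lay below PBS replicates 1 and 3. Krt27 (16675), another type I chain, was at 1099 CPM in the TSeL+L sample, 1099.6, 325 and 1887 CPM in TL+L, 7.83 CPM in TSeL, and 10.1, 1.11 and 125 CPM in PBS. TSeL+L and TL+L replicate 1 were nearly equal in it. Krt28 (70843) was at 360.2 CPM in the TSeL+L sample, 393, 135 and 773 CPM in TL+L, 30.8 CPM in TSeL, and 14.2, 0.799 and 41.4 CPM in PBS. Krt26 (320864) was at 182 CPM in the TSeL+L sample, 111, 66.2 and 594 CPM in TL+L, 0.909 CPM in TSeL, and 2.93, 0.184 and 21.3 CPM in PBS. Both are type I inner root sheath chains, and in both TL+L replicate 3 was highest.

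Of the type II chains, Krt73 (223915) was at 668 CPM in the TSeL+L sample, 787, 299 and 1042 CPM in TL+L, 47.6 CPM in TSeL, and 35.0, 1.78 and 88.6 CPM in PBS. Its TSeL value lay between those of PBS replicates 1 and 3. Krt72 (105866) was at 271 CPM in the TSeL+L sample, 165, 79.0 and 977 CPM in TL+L, 0 CPM in TSeL, and 0.732, 0 and 33.3 CPM in PBS. It had 0 counts in TSeL and in PBS replicate 2, and 12.4 times as many CPM in TL+L replicate 3 as in replicate 2. A count of 0 in TSeL, the rounded mean of its columns, is taken to allow up to 0.210 CPM (3 counts).

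EdgeR on all samples called none of the 7 between TL+L and PBS, and DESeq2 called each of them except Krt72. Their log2 fold changes ran from 4.08 (Krt73) to 5.16 (Krt72), with SE of 1.24 and 2.01, and edgeR adjusted p of 0.0715 and 0.120. PBS replicate 3 carried most of the PBS counts. In Krt71 it was at 25.3 times, in Krt25 16.6 times and in Krt73 4.81 times the mean of the other PBS samples. Without that sample the TL+L fold of Krt71 was 218 rather than 23.7, and that of Krt25 was 133 rather than 21.2, with edgeR adjusted p of 0.0942 and 0.0944. The TPM ratio of type I to type II inner root sheath keratins was 1.10, 1.024 and 1.04 in TL+L, against 1.13, 1.57 and 1.07 in PBS. It was highest in PBS replicate 2, where these genes were lowest, and the other samples were close to one another. Krt72 over Krt71 in TPM was 0.0468, 0.0680 and 0.170 in TL+L, against 0.0235, 0 and 0.0816 in PBS.

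Hair shaft keratins took 0.484% in the TSeL+L sample, 0.692, 0.0820 and 1.18% in TL+L, 0.00234% in TSeL, and 0.00238, 0.000621 and 0.0311% in PBS of all counts, with means of 0.653% ± 0.552 in TL+L and 0.0114% ± 0.0171 in PBS (SD, n = 3 each). All TL+L samples lay above all PBS samples in 16 of 16 genes, against 20.6% of all genes tested. TSeL+L lay above all PBS samples in 16 of 16 as well, against 35.9%. TL+L replicate 2 was the lowest TL+L sample and PBS replicate 3 the highest PBS sample in 16 of 16. The 16 genes thus moved together across samples and are not 16 separate observations. The spread inside each group was wide, and the SD exceeded the mean in PBS.

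Among type I chains of the cortex, the bulk of the shaft, Krt31 (16660) was at 412 CPM in the TSeL+L sample, 637, 63.7 and 1046 CPM in TL+L, 0.140 CPM in TSeL, and 0.183, 0.0614 and 26.2 CPM in PBS. Krt33a (71888) was at 644 CPM in the TSeL+L sample, 822, 87.2 and 1735 CPM in TL+L, 0 CPM in TSeL, and 0.122, 0.307 and 38.8 CPM in PBS. Both were near 0 in TSeL and in PBS replicates 1 and 2, with PBS replicate 3 between these and TL+L. Krt33b (16671) was at 268 CPM in the TSeL+L sample, 396, 37.5 and 798 CPM in TL+L, 0 CPM in TSeL, and 0.0610, 0.184 and 16.5 CPM in PBS. Krt34 (16672) was at 334 CPM in the TSeL+L sample, 456, 41.2 and 1128 CPM in TL+L, 0 CPM in TSeL, and 0, 0.184 and 20.6 CPM in PBS. These 4 genes are neighbours with similar sequences, so reads may be shared among them and the level of each is uncertain. Each had the same order of TL+L samples, replicate 3 above 1 above 2.

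Their folds rested on PBS replicate 3. Krt31 was 65.8-fold higher in TL+L (log2 fold change 6.04, SE 2.09, edgeR adjusted p = 0.0938), and 4541-fold without PBS replicate 3, when the other PBS samples had 3 and 1 counts and the edgeR adjusted p was 0.0660. Krt34 was 77.9-fold higher (log2 fold change 6.28, SE 2.16, edgeR adjusted p = 0.0929), and Krt33a 67.2-fold (log2 fold change 6.07, SE 2.19, edgeR adjusted p = 0.102). In PBS replicate 3, Krt34 was at 224 times and Krt31 at 215 times the mean of the other PBS samples.

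Krt35 (53617), the type I chain of the matrix and lower shaft that is made before the cortex keratins, was at 528 CPM in the TSeL+L sample, 697, 173 and 666 CPM in TL+L, 16.6 CPM in TSeL, and 10.98, 0.369 and 53.3 CPM in PBS. It was the hair shaft keratin with the most TPM in TL+L replicate 2 and in PBS replicates 1 and 3. Krt31 over Krt35 in TPM was 1.012, 0.408 and 1.74 in TL+L, against 0.0181, 0.189 and 0.546 in PBS. The late cortex chain thus exceeded the early one in TL+L replicates 1 and 3, and was lowest against it in PBS replicate 1. Of hair shaft TPM, the 9 cortex genes gave 83.2, 67.3 and 90.9% in TL+L, against 30.8, 64.5 and 73.1% in PBS. The 4 cuticle genes gave 5.21, 9.26 and 2.83% in TL+L, against 4.82, 1.64 and 8.44% in PBS. The cortex share was thus lower in PBS replicate 1 than in the other samples. PBS replicate 2 had few hair shaft counts, so its shares are imprecise.

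Krt36, an acidic hair keratin, rose in TL+L. It was at 39.9 CPM in the TSeL+L sample, 59.0, 11.3 and 58.9 CPM in TL+L, 0.350 CPM in TSeL, and 0.122, 0.0614 and 2.96 CPM in PBS. TL+L and PBS did not overlap, and TSeL lay within the PBS range. The means were 43.1 ± 27.5 CPM over the TL+L samples, against 1.05 ± 1.66 CPM over those of PBS (SD, n = 3 each), a 40.4-fold rise (log2 fold change 5.34, SE 1.23, edgeR adjusted p = 0.0415). The fold was 439 without PBS replicate 3, and the call was lost when any 1 sample other than TL+L replicate 2 was left out (edgeR adjusted p = 0.0584 to 0.123).

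Among type II chains, Krt81 (64818), a cortex keratin, was at 465 CPM in the TSeL+L sample, 639, 59.3 and 1494 CPM in TL+L, 1.33 CPM in TSeL, and 1.10, 0.492 and 28.7 CPM in PBS. Krt86 (16679), its close paralog, was at 376 CPM in the TSeL+L sample, 469, 48.7 and 1180.3 CPM in TL+L, 1.33 CPM in TSeL, and 1.77, 0.860 and 25.2 CPM in PBS. In both, TL+L replicate 3 was highest and TSeL lay within the PBS range. Reads may be shared among Krt81, Krt83, Krt86 and Krt87, which are near-identical in parts. Krt82 (114566), the type II chain of the shaft's cuticle, was at 85.1 CPM in the TSeL+L sample, 110.0, 25.4 and 100.3 CPM in TL+L, 0 CPM in TSeL, and 0.122, 0 and 8.88 CPM in PBS. Here TL+L replicates 1 and 3 were close, as in Krt36 and unlike Krt81 and Krt86. It was not called (log2 fold change 4.70, SE 1.495, edgeR adjusted p = 0.0784), but was the only keratin called without PBS replicate 3, with an edgeR adjusted p of 0.0451.

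Krt84, a type II hard keratin known from the tongue's filiform papillae, rose in TL+L. It was at 20.3 CPM in the TSeL+L sample, 19.9, 2.28 and 46.2 CPM in TL+L, 0.350 CPM in TSeL, and 1.10, 0.922 and 1.18 CPM in PBS. The 3 PBS samples were close to one another and all below the lowest TL+L sample. The means were 22.8 ± 22.1 CPM over the TL+L samples, against 1.07 ± 0.134 CPM over those of PBS (SD, n = 3 each), a 21.2-fold rise (log2 fold change 4.41, SE 1.04, edgeR adjusted p = 0.0435). Without TL+L replicate 3 the fold was 10.5, and the call was lost when any 1 sample other than TL+L replicate 2 was left out (edgeR adjusted p = 0.0941 to 0.137). In PBS replicate 3 it was at 1.17 times the mean of the other PBS samples, against 36.1 times for Krt81. The remaining hair shaft keratins, Krt32, Krt39, Krt40, Krt83, Krt87 and Krt90, had log2 fold changes from 1.95 (Krt90) to 6.22 (Krt83), and edgeR on all samples called none. DESeq2 called 5 of these 6, all but Krt40.

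**Figure D4:**
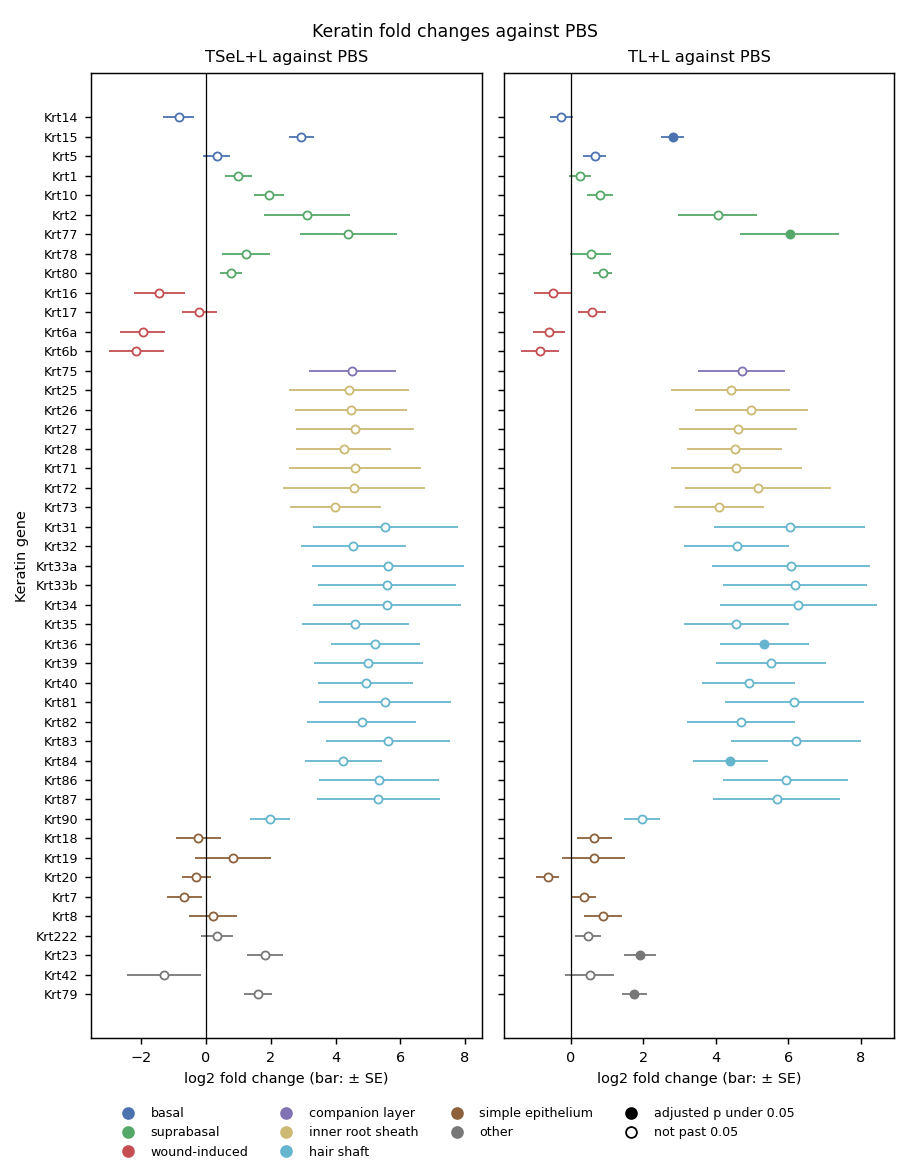
Log2 fold change over PBS (horizontal axis, bars ± SE) of each tested keratin (vertical axis) in TSeL+L (left, 1 sample) and TL+L (right, 3 samples), coloured by class, with filled points past an edgeR adjusted p of 0.05. Inner root sheath and hair shaft keratins lie between 1.95 and 6.28 in TL+L with wide bars, and the filled points are Krt15, Krt77, Krt36, Krt84, Krt23 and Krt79.

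Listed transcription factors of the hair follicle were also higher in TL+L, on a list chosen with earlier results of these data known. All 6 listed (Msx2, Hoxc13, Foxn1, Lef1, Gata3 and Dlx3) rose in TL+L, against 5.67% of all genes tested. Over all genes, the 2029 calls fell to between 16 and 183 when 1 sample other than TL+L replicate 2 was left out. Values of these 6 in those fits are not given here. Their sum was 528 CPM in the TSeL+L sample, 687, 221 and 733 CPM in TL+L, 94.4 CPM in TSeL, and 45.1, 29.2 and 80.5 CPM in PBS. TL+L replicate 2 was again the lowest TL+L sample and PBS replicate 3 the highest PBS sample. Msx2, a homeobox factor, rose 16.6-fold (log2 fold change 4.06, SE 0.89, edgeR adjusted p = 0.0381). Hoxc13, a homeobox factor that binds hair keratin promoters, rose 16.3-fold (log2 fold change 4.03, SE 0.94, edgeR adjusted p = 0.0426). Dlx3 rose 12.5-fold (log2 fold change 3.64, SE 0.79, edgeR adjusted p = 0.0377). The 3 epidermal regulators (Trp63, Klf4 and Grhl3) included 0 that were called, against 12.8% of all genes.

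Marker lists of other cell types also differed between samples. The skeletal muscle list (5 of 5 genes detected in every sample) summed to 16939.8 CPM in the TSeL+L sample, 3657, 19962 and 8624 CPM in TL+L, 79418 CPM in TSeL, and 23293, 14480.4 and 7925 CPM in PBS. The adipocyte list (4 of 4 detected) summed to 531 CPM in the TSeL+L sample, 499, 1292 and 752 CPM in TL+L, 425 CPM in TSeL, and 313, 311 and 458 CPM in PBS. TSeL, with little hair keratin, was highest in muscle, and TL+L replicate 2, the lowest TL+L sample in hair keratins, was the highest TL+L sample in both lists. The sebocyte list (4 of 4 detected) summed to 1261 CPM in TSeL+L, 1280.1 to 1581 CPM in TL+L, 864 CPM in TSeL and 361 to 414 CPM in PBS, and the fibroblast list (4 of 4) to 20090 CPM in TSeL+L, 8950.0 to 33245 CPM in TL+L, 22055 CPM in TSeL and 43796 to 58661 CPM in PBS. Between TL+L and PBS, 3 of 4 sebocyte, 1 of 4 adipocyte and 1 of 3 proliferation genes rose by edgeR, against 5.67% of all genes. Of the neutrophil genes 2 of 4 fell, against 7.17%. For fibroblast and muscle, 0 of 4 and 0 of 5 genes were called, against 12.8% in either direction. Counts from lists this short say little about a cell type. The part of these cell types in the keratin values was not tested. The proliferation list (Mki67, Top2a and Ccnb1, all detected) summed to 449 CPM in the TSeL+L sample, 536, 327 and 461 CPM in TL+L, 297 CPM in TSeL, and 251, 191 and 266 CPM in PBS, with every TL+L sample, TSeL+L and TSeL above every PBS sample.

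Keratins of simple epithelia, which in skin mark sweat glands, Merkel cells and secretory ducts, were scarce. Krt8 (16691) was at 1.81 CPM in the TSeL+L sample, 3.92, 1.42 and 3.35 CPM in TL+L, 2.73 CPM in TSeL, and 1.28, 2.52 and 0.888 CPM in PBS. Krt18 (16668), its type I partner, was at 3.39 CPM in the TSeL+L sample, 7.15, 3.02 and 8.59 CPM in TL+L, 6.57 CPM in TSeL, and 3.11, 6.21 and 2.66 CPM in PBS. Krt19 (16669), a keratin of the bulge and of glands, was at 1.37 CPM in the TSeL+L sample, 1.75, 0.228 and 1.56 CPM in TL+L, 1.96 CPM in TSeL, and 1.46, 0.184 and 0.651 CPM in PBS. TL+L and PBS overlapped in all of these. EdgeR on all samples called none of the 5, and log2 fold changes in TL+L ran from -0.65 (Krt20) to 0.89 (Krt8).

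In the class of other keratins, Krt79 (223917), which marks the follicle opening and sebaceous duct in mouse, rose in TL+L. It was at 522 CPM in the TSeL+L sample, 640.2, 358 and 733 CPM in TL+L, 375 CPM in TSeL, and 230.0, 153 and 132 CPM in PBS. TL+L and PBS did not overlap, and both TSeL+L and TSeL lay above all PBS samples. The means were 577 ± 195 CPM over the TL+L samples, against 172 ± 51.5 CPM over those of PBS (SD, n = 3 each), a 3.36-fold rise (log2 fold change 1.75, SE 0.34, edgeR adjusted p = 0.0308). Krt23 (94179), a type I keratin, also rose, and was at 80.0 CPM in the TSeL+L sample, 78.5, 48.7 and 126 CPM in TL+L, 9.58 CPM in TSeL, and 24.0, 13.1 and 30.6 CPM in PBS. TSeL lay below all PBS samples and TSeL+L inside the TL+L range. The means were 84.4 ± 39.0 CPM over the TL+L samples, against 22.5 ± 8.82 CPM over those of PBS (SD, n = 3 each), a 3.74-fold rise (log2 fold change 1.90, SE 0.43, edgeR adjusted p = 0.0413). For Krt79 and Krt23 the call was lost when any 1 sample other than TL+L replicate 2 was left out, with edgeR adjusted p of 0.0779 to 0.116 for Krt79 and 0.0891 to 0.120 for Krt23. Krt79 differed from the shaft keratins in its TSeL value, which was 1.39-fold below TSeL+L, while Krt81 was 350.3-fold below. Krt42 and Krt222 had under 4 CPM in every sample and were not called in TL+L.

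The comparison of TSeL+L with PBS had 1 treated sample, and 0 keratins were called by edgeR, where 0.0127% of all genes were (0.00633% higher and 0.00633% lower). At an unadjusted p under 0.05 there were 27 keratins, against 20.6% of all genes, and DESeq2 called 7, against 9.42%. TSeL+L lay above every PBS sample in 35 of 46 keratins, against 35.9% of all genes, and below in 7, against 36.4%. The 35 included all 7 inner root sheath, all 16 hair shaft and all 6 tested suprabasal keratins, and the 7 included Krt14, Krt6a, Krt6b and Krt16. Median log2 fold changes were 5.27 in the hair shaft, 4.48 in the inner root sheath, 1.59 in suprabasal and -1.70 in wound-induced keratins, against -0.00289 over all genes. The follicle values rest on PBS replicate 3. Without it the TSeL+L fold was 3237 rather than 46.6 in Krt31, 3435 rather than 48.1 in Krt34 and 223 rather than 24.1 in Krt71. The smallest edgeR adjusted p was that of Krt15, with a log2 fold change of 2.94 (SE 0.38, adjusted p = 0.0682), and Krt10 followed at 1.95 (SE 0.45, adjusted p = 0.115).

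The comparison of TSeL with PBS likewise had 1 treated sample and 0 called keratins by edgeR, with 0% of all genes called, 5 keratins at an unadjusted p under 0.05 (19.7% of all genes) and 1, Krt80, called by DESeq2 (8.39% of all genes). Both keratin counts are below the share over all genes. TSeL lay above every PBS sample in 8 keratins, against 37.5% of all genes, below in 12, against 33.4%, and within the PBS range in 26. The 26 included all 7 inner root sheath and 12 of 16 hair shaft keratins. Krt80 and Krt10 were below all PBS samples (log2 fold changes -1.33 and -1.015, edgeR adjusted p = 0.160 and 0.341), and Krt15 and Krt79 above them (1.056 and 1.13, edgeR adjusted p = 0.223 and 0.229). The smallest p was that of the scarce Krt222, at 1.09 CPM in the TSeL+L sample, 1.060, 1.59 and 0.949 CPM in TL+L, 3.92 CPM in TSeL, and 1.04, 0.676 and 0.888 CPM in PBS. TSeL lay above every other sample in it (log2 fold change 2.17, SE 0.43, edgeR adjusted p = 0.120). The call was made without TL+L replicate 2, when 8.35% of all genes were called.

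TSeL+L against TSeL compared 2 single samples, and 0 keratins and 0% of all genes were called by edgeR (17 keratins at an unadjusted p under 0.05, against 12.1% of all genes, and 12 called by DESeq2, against 2.30%). In CPM, 33 of 46 keratins were at least 2-fold higher in TSeL+L, against 7.74% of all genes, and 4 at least 2-fold lower, against 9.8%. The 33 included all 16 hair shaft, all 7 inner root sheath and all 6 tested suprabasal keratins. Krt71 was 313-fold and Krt25 80.5-fold higher. For genes with 0 counts in TSeL, as a rounded mean of its columns, the fold is given as a lower bound against 3 counts in that sample. Krt33a was at least 3069-fold, Krt34 at least 1594-fold, Krt33b at least 1276-fold and Krt82 at least 406-fold higher in TSeL+L. Krt31 had 2 counts in TSeL, and its ratio of TSeL+L to TSeL was 2948 (95% binomial interval 816 to 24343) from counts alone. That interval is approximate, since the counts are rounded means of 3 columns. The hair shaft median was 7.99 (log2) with such genes at their bound. The suprabasal median was 2.54, against -0.07 over all genes.

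TSeL+L against TL+L gave 0 called keratins by edgeR and by DESeq2, with 0% of all genes called by edgeR and 1 keratin (Krt10) at an unadjusted p under 0.05. TSeL+L lay within the TL+L range in 39 of 46 keratins, and most of all genes tested lay within it as well. It lay above in 3 (Krt1, Krt10 and Krt20), against 8.29% of all genes, and below in 4 (Krt14, Krt6a, Krt7 and Krt42), against 11.5%. Krt10 stood at 3797 CPM in the TSeL+L sample, against a mean of 1711 ± 699 CPM over TL+L (SD, n = 3; log2 fold change 1.15, SE 0.46). For Krt71 the log2 fold change was 0.03 with an SE of 2.20, so neither large nor small differences in the inner root sheath could be told from the spread.

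The make-up of the keratin transcripts also differed. Of all keratin TPM, inner root sheath keratins gave 22.4, 14.7 and 34.3% in TL+L, against 0.765, 0.0315 and 6.77% in PBS. Wound-induced keratins gave 29.8, 30.1 and 12.2% in TL+L, against 50.2, 54.1 and 45.5% in PBS. Every TL+L sample lay below every PBS sample in the wound-induced share and above it in the inner root sheath share. A share of keratin TPM falls when other keratins rise, so this share alone does not show a fall in wound-induced keratins. Of all counts, wound-induced keratins took 1.19, 0.580 and 0.482% in TL+L, against 0.785, 1.13 and 0.659% in PBS. Those ranges overlapped, and TL+L replicate 1 was the highest of these samples. Over all keratins the TPM ratio of type I to type II chains was 1.29, 1.21 and 1.15 in TL+L, against 1.27, 1.32 and 1.28 in PBS. The groups overlapped.

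By gene order in the RefSeq table, 27 type I genes lie on chromosome 11, and the 25 type II genes with the type I gene Krt18 lie on chromosome 15. Only keratin genes were placed in this order, so other genes between them were not seen, and a neighbour here is the next keratin gene. On chromosome 11 the inner root sheath genes Krt25, Krt26, Krt27 and Krt28 stand beside Krt10. The 9 hair shaft genes from Krt39 to Krt36 follow one another with no other keratin gene between them. Krt28 had a log2 fold change of 4.52 in TL+L and its neighbour Krt10 of 0.80. On chromosome 15, Krt75 at 4.71 stands next to Krt6b at -0.85, and Krt5 at 0.65 next to Krt71 at 4.57. These 3 pairs are examples at class borders and differed by more than 3 on the log2 scale. At another border, Krt73 at 4.08 and its suprabasal neighbour Krt2 at 4.06 did not. Krt23 at 1.90 and its neighbour Krt39 at 5.53 also differed by more than 3. Such steps also lay within a class, from Krt2 to its neighbour Krt1 at 0.25 and from Krt1 to Krt77 at 6.04.

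**Figure D5:**
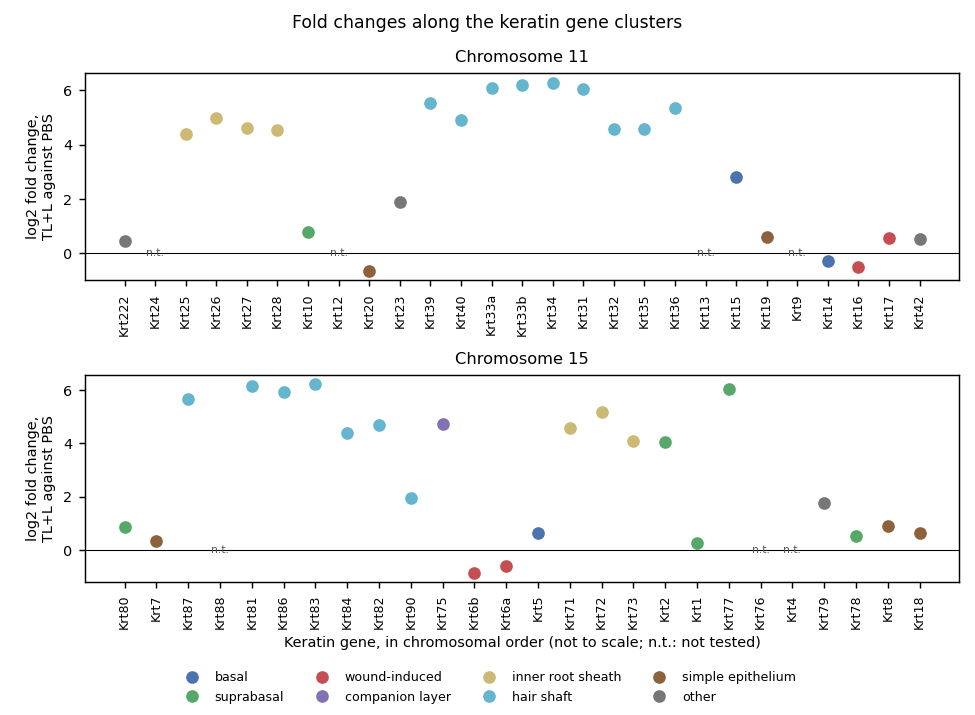
Log2 fold change of TL+L over PBS (vertical axis) of each keratin gene in its order along chromosomes 11 and 15 (horizontal axis, not to scale), coloured by class. Inner root sheath and hair shaft genes stand in blocks between 1.95 and 6.28, and wound-induced genes lie between -0.85 and 0.58. Krt15, Krt2 and Krt77 stand well above the other basal and suprabasal genes.

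Among 17 genes for keratin partners and the cornified envelope, 2 rose in TL+L, 0 fell and 15 had a positive log2 fold change, with a median of 1.00, where 5.67% of all genes rose and 7.17% fell. Ppl, periplakin, which links keratin filaments to the envelope and to desmosomes, rose 1.92-fold, with 459 ± 109 CPM over the TL+L samples, against 238 ± 28.5 CPM over those of PBS (SD, n = 3 each; edgeR adjusted p = 0.0384). Evpl, envoplakin, its partner, rose 2.17-fold, with 273 ± 80.7 CPM over the TL+L samples, against 126 ± 30.8 CPM over those of PBS (SD, n = 3 each; edgeR adjusted p = 0.0486). In the other comparisons 0 of the 17 were called, with medians of 0.96 in TSeL+L over PBS and -0.43 in TSeL over PBS.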

How the data were processed

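RNA-seq libraries of mouse skin were made with oligo-dT beads, per the labels' protocols. The deposited gene table holds expected counts and TPM, and the tools listed in the submitters' processing notes are Bowtie2 and RSEM. Tool versions, genome build and use of strand were not given in the sources used here. Of the authors' expected counts, 88.7% were whole as deposited, and all were rounded. The authors' TPM were used as deposited, for ratios and levels between genes, in TL+L and PBS. The 6 TPM columns read as TSeL or TSeL+L were not used.

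The 3 columns read as TSeL, and the 3 read as TSeL+L, differed within each set by a mean chi-square of 1.19 to 1.49 per gene, against 25.1 to 184 between PBS or TL+L samples, so each set was averaged into 1 sample. No column of those sets could be tied to a single labelled sample. Counts of the 8 samples were fitted together in R 4.3.3 with edgeR 4.0.16 (filterByExpr, TMM, robust quasi-likelihood F-test, 4 residual degrees of freedom, Benjamini-Hochberg adjustment over 15791 genes, threshold 0.05). The procedure was also run on simulated counts, drawn independently for each gene, with folds planted in TL+L. Its outcome is not given here. Independent genes cannot show how calls depend on single samples where genes move together. DESeq2 1.42.0, other scalings, no filter, all columns kept separate, only the compared groups, a replicate block and leaving out each sample were the alternatives. Intervals and floors (3 counts) cover counting error only, and treat the rounded means of the TSeL and TSeL+L columns as counts. Lists of marker, partner and regulator genes, the classes and the members named were chosen with earlier results of these data known. Genes named with full values were the called keratins and set members of each class.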

Additional observations from a re-analysis of the deposited data

How the results depend on the processing

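Of TL+L against PBS, the 6 called keratins became 7 with size factors of the DESeq2 type (13.4% of all genes called). They became 9 with TMM computed without keratin and keratin-associated protein genes (13.7%) and 5 with no low-count filter (10.4%). With only the compared groups they became 8 (14.5%), with DESeq2 27 (25.7%) and with all 12 columns as separate samples 32 (46.5%). They became 0 to 16 when 1 sample was left out. Several of these counts are near the share of all genes. For TSeL+L against PBS, 0 became 6 with only the compared groups (11.6% of all genes), 7 with DESeq2 (9.42%) and 37 with all 12 columns (46%). With 1 sample left out it became 0 to 4, the 4 without TL+L replicate 2 (13.7%). For TSeL against PBS it became 1 with DESeq2 (8.39% of all genes) and 13 with all 12 columns (42.3%). With 1 sample left out it became 0 to 1, the 1 without TL+L replicate 2 (8.35%). For TSeL+L against TSeL it became 12 with DESeq2 (2.3% of all genes), 35 with all 12 columns (42.9%) and 0 to 0 with 1 sample left out. A fit of only those groups has no residual degrees of freedom and was not run. For TSeL+L against TL+L it was 0 under every alternative run. Keeping all 12 columns treats near-identical columns as replicates, which narrows the spread by construction. Over all genes, TL+L against PBS gave 2029 calls, 4064 with DESeq2, 7164 with all 12 columns, 1066 with the replicate block and 16 to 6299 with 1 sample left out. TSeL+L against PBS gave 2, 1487 with DESeq2, 7093 with all 12 columns and 1802 with only the compared groups, and TSeL against PBS gave 0, 1325, 6521 and 417 in the same order. DESeq2 gave no adjusted p for 5 keratins in TSeL against PBS and 7 in TSeL+L against TSeL.

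The hair shaft median log2 fold change was 5.60, with a range of 4.94 to 9.48 when 1 sample was left out, the highest without PBS replicate 3. The difference in wound-induced share was -0.107 percentage points, with a range of -0.327 to 0.0290, and was reversed without TL+L replicate 3 (0.0274) or PBS replicate 2 (0.0290). Apart from what their construction shows, the cause of these shifts was not tested.

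The replicate block raised the called keratins of TL+L against PBS to 24, where it called 7.07% of all genes. Krt84 was no longer called with it (edgeR adjusted p = 0.0622). Deviations of same-numbered TL+L and PBS samples correlated at -0.175, 0.130 and 0.212 across genes, so the numbers were not taken to pair the samples. Krt77 missed the threshold without the low-count filter (edgeR adjusted p = 0.0508).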
